A study of Mus musculus with 5 samples.

Results

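Gria2, Grip1 and Dlgap4 encode a receptor subunit and its partners at excitatory synapses, and each has splicing events in a list of RNAs that changed when PQBP1 was knocked down in mouse cortical neurons. The members were taken by gene name from the authors' deposited table of alternative splicing events: all junctions of every event named for one of these 3 genes. They make up 7 of 585 events and 15 of 1402 junctions, in 3 of 457 named genes. Gria2 has 3 events with 6 junctions, Grip1 has 2 events with 5 junctions and Dlgap4 has 2 events with 4 junctions. An event here is a set of junctions that use the same donor or the same acceptor and differ at the other end.

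All samples were neurons from cortices of E16.5 C57BL/6 mouse embryos, kept until day 5 in vitro, and all received lentivirus. Of the 5 samples, 3 carried a non-targeting control shRNA (mock knockdown) and 2 a PQBP1-targeting shRNA (PQBP1 knockdown). PQBP1 is a nuclear protein that binds parts of the spliceosome. The labels do not say how many hairpin sequences were used, nor whether the replicates were separate cultures. The table holds only the comparison of the groups, as 1 p-value and 1 log2 fold per junction (knockdown relative to control), and no value for any single sample, no read count and no gene level. Depth, replicate spread, the level of the targeted gene and markers of neurons or other cells could therefore not be examined. For the same reason, a shift within cells and a different mix of cells in the knockdown cultures cannot be told apart.

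The members were found in a list of changed events, so their p-values and folds are a description and not a test. All 585 listed events (100%) have a junction with p under 0.05 in the authors' deposited table. Of the member junctions, 13 of 15 are below that value, against 76.2% of the 1389 junctions with a p, and 8 of 15 are below 0.01, against 20.4%. These shares follow from how the members were listed and nothing is read from them. For an event with 2 junctions, the change is given below as the ratio of one junction to the other in the knockdown divided by the same ratio in the mock knockdown. Coordinates are 1-based positions in mm10.

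AMPA receptors carry fast excitatory transmission and are assembled from GluA subunits, of which Gria2 encodes GluA2, the subunit that makes the channel nearly impermeable to calcium. Each GluA subunit contains either of a pair of alternative segments, flip and flop, encoded by neighbouring exons, which set how fast the channel desensitizes. In the rodent brain flip is the early form and flop increases after birth. The last residues of the common, short form of GluA2 bind PDZ domains of GRIP1, the product of Grip1, and of PICK1. GRIP1 is a scaffold with several PDZ domains that links receptors to transport and anchoring. Dlgap4 encodes a guanylate kinase-associated protein, a scaffold that connects PSD-95 family proteins to SHANK proteins in the postsynaptic density.

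The exons that the Gria2 junctions join carry the finding and are shown first. The upstream exon lies at chr3:80691320-80691434 and the downstream exon at chr3:80690404-80690518, both on the minus strand and both coding, with 115 nt each. Capitals mark the bases that differ between them, and both sequences are from GENCODE M21 transcripts:
flop, upstream: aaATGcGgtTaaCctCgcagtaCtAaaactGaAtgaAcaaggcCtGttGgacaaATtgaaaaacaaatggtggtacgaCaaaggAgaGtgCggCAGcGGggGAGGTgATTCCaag
flip, downstream: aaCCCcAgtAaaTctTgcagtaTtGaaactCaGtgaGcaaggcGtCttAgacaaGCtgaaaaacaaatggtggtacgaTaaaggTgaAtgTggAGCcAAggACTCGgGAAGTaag

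The exons differ at 36 of 115 bases (68.7% identical), and 9 of the 38 whole codons in each encode different amino acids. The names were given from the reading frame. At 1 of these codons the downstream exon encodes serine and the upstream exon asparagine, the pair known to set flip and flop apart in their response to the drug cyclothiazide. The upstream exon is thus flop and the downstream exon flip.

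The exon after flip or flop is the same in both forms and encodes the last transmembrane segment and the C terminus. It lies at chr3:80689103-80689351 (249 nt, minus strand) and holds the stop codon. It is shown without its last 3 bases, with capitals on the bases left out when an upstream donor within the exon is used:
exon after flip or flop: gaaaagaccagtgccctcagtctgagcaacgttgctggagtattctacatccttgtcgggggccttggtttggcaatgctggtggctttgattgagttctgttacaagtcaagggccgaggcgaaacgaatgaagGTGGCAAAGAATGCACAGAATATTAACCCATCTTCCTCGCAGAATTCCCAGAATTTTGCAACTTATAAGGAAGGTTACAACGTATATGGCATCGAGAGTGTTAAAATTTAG

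At the exon after flip or flop, Gria2 shifted from the flip junction towards the flop junction after knockdown. In the event that shares the acceptor of the exon after flip or flop, the junction from flop had a log2 fold of 0.90 and the junction from flip one of -0.31 in the authors' deposited table (p = 2.45e-05). The flop junction relative to the flip junction was thus 2.31 times that of the mock knockdown. The junctions lie at chr3:80689352-80691319 for flop and chr3:80689352-80690403 for flip, and both are annotated introns. If these junctions make up all use of that acceptor, the use of each is implied by the folds. The flop junction took 18.3% in the mock knockdown and 34.1% in the knockdown, and the flip junction 81.7% and 65.9%. The flip junction stayed the more used in both groups by this measure. It also serves transcripts with flop followed by flip, so its share is not that of flip without flop. How much of its change came from such transcripts was not tested.

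A typing that looks for a cassette exon first takes flip as a skipped exon here, because an annotated transcript joins flop to flip. Typed for mutually exclusive exons first, the event is an exchange, since the annotated protein-coding transcripts have flop without flip or flip without flop, with the same exon before and after. Of the 408 events with 2 junctions, 23 are of mutually exclusive exons by that order and 9 when cassette exons are looked for first. Those nearest in change to the -1.21 of Gria2 (log2, nearer over farther junction) are in H2afy at -1.28, Sdhc at -1.12 and Actn1 at -1.36. The Sdhc event, like that of Gria2, is a cassette exon when that type is looked for first.

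**Figure D1:**
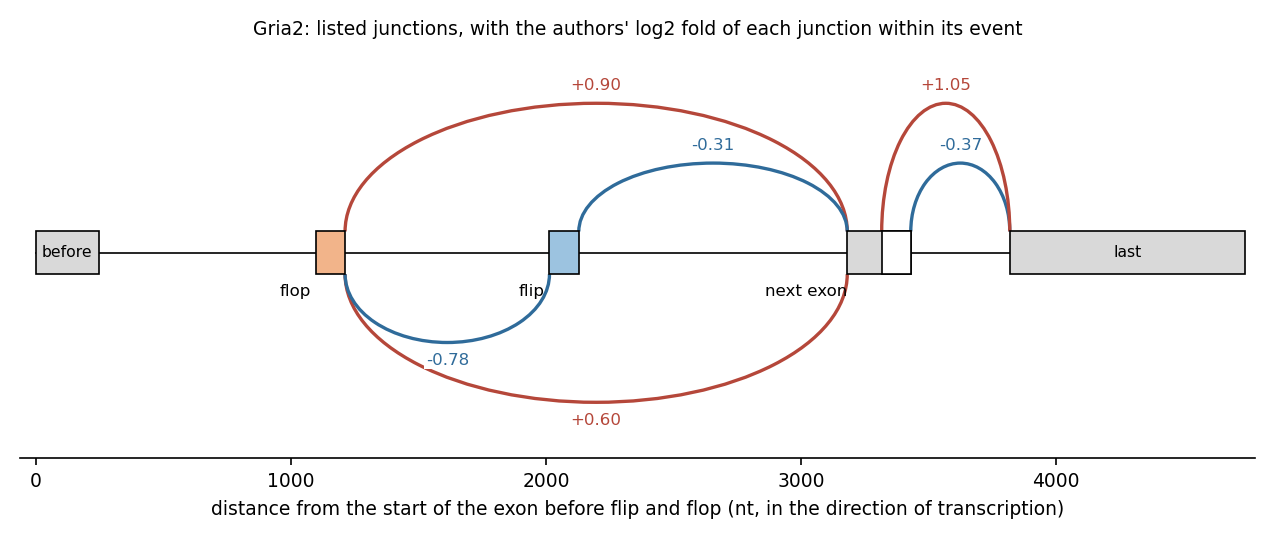
Map of the 3′ part of Gria2 with exons as boxes and listed junctions as arcs; the x axis is the distance in nt from the start of the exon before flip and flop. Numbers are the authors' log2 folds (knockdown over mock), red for higher and blue for lower. Arcs above the line belong to the events that share an acceptor, arcs below to the event that shares the flop donor, and the white box is the stretch left out with the unannotated donor. The junction from flop to the next exon stands at 0.90 and 0.60 in its events, and the unannotated donor at 1.05.

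The second Gria2 event reports on transcripts with flop followed by flip. It shares the donor of flop, which is joined either to the next common exon or to flip, at chr3:80690519-80691319. The junction from flop to flip had a log2 fold of -0.78 and the junction past flip one of 0.60 (p = 0.000258) in the authors' deposited table. Joining to flip was thus 0.384 times as frequent, relative to passing it, as in the mock knockdown. The folds imply that 55.3% of the use of the flop donor led to flip in the mock knockdown and 32.2% in the knockdown.

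Such a transcript, with no other change, is out of frame. Compared with a form that has flip alone, it gains the 115 nt of flop, which is not a multiple of 3. Inserting flop before flip in the annotated flip transcript leaves an open reading frame of 813 codons instead of 883. The stop then lies 328 nt before the last exon junction. The annotated transcript with both exons is classed as a target of nonsense-mediated decay, but it also has an exon of 41 nt upstream of flop. That length is not a multiple of 3 either, so the class cannot be credited to joining flop to flip. Both Gria2 events above contain the junction from flop to the common exon. Relative to it, the junction from flip to the common exon changed by -1.21 and the junction from flop to flip by -1.38 on the log2 scale. These junctions on either side of flip thus differed from each other by 0.17.

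The C-terminal exon of Gria2 used a different donor more often after knockdown. The event has the third smallest p of the 585 in the list. Its annotated donor gives the 249 nt exon, and the other donor, which is in no gene model used here, gives an exon of 135 nt. In the authors' deposited table the junction from the unannotated donor, chr3:80688715-80689216, had a log2 fold of 1.05. The annotated one, chr3:80688715-80689102, had one of -0.37 (p = 6.89e-06 for each) in the authors' deposited table. The unannotated relative to the annotated donor stood at 2.68 times that of the mock knockdown, and the implied use of the unannotated donor was 17.5% in the mock knockdown and 36.3% in the knockdown.

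The intron from the unannotated donor begins with GT, the usual first bases of an intron. Its use removes 114 nt, a multiple of 3, together with the stop codon. Reading then goes on into the next exon, so that the open reading frame has 901 codons instead of 883. The frames share 847 codons and then differ: 36 codons follow with the annotated donor and 54 with the other. The capitals in the exon shown above therefore hold the codons for the end of the short form, the part that binds the PDZ domains of GRIP1. A GluA2 form with a longer C terminus is known in rodents. The junction reads do not show which of flip and flop lay in the same molecules.

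**Figure D2:**
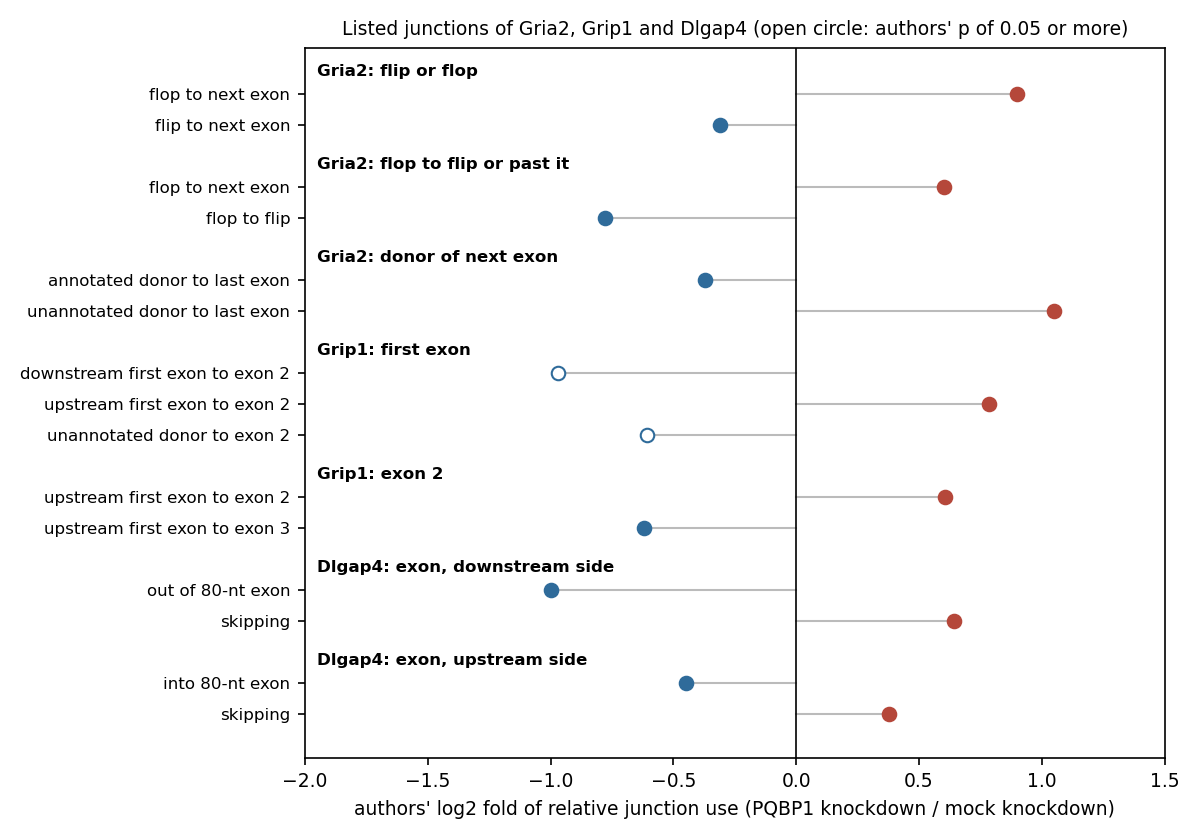
Authors' log2 fold of relative junction use (x axis, knockdown over mock) for each of the 15 junctions, grouped by event. Filled circles have an authors' p under 0.05 and open circles do not; red is higher and blue lower. Each event has junctions on both sides of 0, and the 2 open circles are Grip1 junctions at -0.97 and -0.61.

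Grip1 used its upstream first exon more often to reach exon 2, and that exon was skipped less. The events concern the 5′ end of the gene. Grip1 has an upstream first exon at chr10:119453830-119454422 and a downstream one at chr10:119819389-119819634, with donors 365 kb apart on the plus strand. Each holds its own start codon, with 58 and 55 coding bases, so the N terminus differs and the frame is the same. GRIP1 proteins with different N termini are known.

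The event with 3 junctions shares the acceptor of exon 2. For the upstream first exon the log2 fold was 0.78 (p = 0.0113) in the authors' deposited table. For the downstream first exon the value in the authors' deposited table was -0.97 (p = 0.0560), which does not pass 0.05. The remaining junction starts at a donor in no gene model used here, 238 kb after the upstream donor, and had a log2 fold of -0.61 (p = 0.314) in the authors' deposited table. Relative to the upstream first exon, the downstream one changed to 0.296 times and the unannotated donor to 0.381 times the mock ratio. Use in each group cannot be worked out from 3 folds.

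The other Grip1 event shares the donor of the upstream first exon, which is joined to exon 2 or directly to exon 3. Exon 2, at chr10:119897715-119897795, is coding, has 81 nt or 27 codons, and keeps the frame whether present or not (1061 codons in an annotated transcript with it and 1034 in one without). It is shown here as the stretch of coding sequence gained or lost, from GENCODE M21:
Grip1 exon 2: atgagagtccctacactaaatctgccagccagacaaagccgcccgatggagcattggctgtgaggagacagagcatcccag

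The log2 folds were 0.61 for the junction to exon 2 and -0.62 for the junction past it (p = 0.0493 for each) in the authors' deposited table. Inclusion relative to skipping was 2.33 times that of the mock knockdown, with an implied use of exon 2 of 40.1% and 60.9%. This p is number 576 of 585 in the list, next to its edge, and the 3-junction event is number 164. The 2 Grip1 events share the junction from the upstream first exon to exon 2 and are not independent.

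The start regions of the Grip1 first exons are unlike. The 300 bases around the RefSeq start (GRCm38.p6) at chr10:119453784-119454083 hold 38 CG dinucleotides, and 5.0% of 32851 windows of that length have at least as many. The window at chr10:119819139-119819438 holds 7, and 52.1% have at least as many. The motif TATAAA, searched on both strands, has no match in the upstream window. The downstream window has 1 match, on the strand opposite to the gene and 98 bases before the start of the first exon, and 13.6% of all windows hold a match on either strand. The upstream window begins 46 bases before the GENCODE first exon and the downstream one 250 bases before it. The table has no data on initiation, and these letters are a description of the windows.

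Dlgap4 skipped a coding exon more often after knockdown. The exon has 80 nt and lies at chr2:156748023-156748102 on the plus strand. It is shown with 20 intron bases before and 10 after, exon in capitals, as read from an intron-retaining Dlgap4 transcript of GENCODE M21:
Dlgap4 exon: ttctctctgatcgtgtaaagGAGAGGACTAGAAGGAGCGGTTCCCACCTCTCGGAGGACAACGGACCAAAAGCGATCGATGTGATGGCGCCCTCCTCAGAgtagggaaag

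Seen from the downstream side, the junction out of the 80 nt exon had a log2 fold of -0.999, against 0.64 for the skipping junction (p = 1.93e-05) in the authors' deposited table. Seen from the upstream side, the junction into the 80 nt exon stood at -0.45 and the skipping junction at 0.38 (p = 0.0183) in the authors' deposited table. Inclusion relative to skipping was thus 0.321 times the mock ratio by the downstream junction and 0.564 times by the upstream one. Both events imply the same inclusion in the mock knockdown, 52.8% and 52.7%, and differ in the knockdown, 26.4% and 38.6%. The skipping junction, chr2:156746197-156748943, is annotated in a single transcript.

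The gap between the sides of the Dlgap4 exon is 0.81 on the log2 scale. Among 52 cassette exons listed from both sides, the median gap is 0.11 and the next largest is 0.73, in Tmem134, so the gap of Dlgap4 is the largest of these. This comparison, and Tmem134 in it, were chosen after the values were seen. That of flip in Gria2, 0.17, is exceeded in 17 of the 52, but its event with the shared acceptor can also be typed as an exchange of flip and flop, so its gap is not that of a plain cassette exon. All 52 exons changed in the same direction from both sides. The events of such an exon share the skipping junction and were both selected for the list, so they are not independent. An annotated Dlgap4 transcript has a longer exon that starts at the same acceptor and runs on to 156748420, so the junction into the exon serves transcripts that do not use its donor. How many reads came from such transcripts was not tested.

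**Figure D3:**
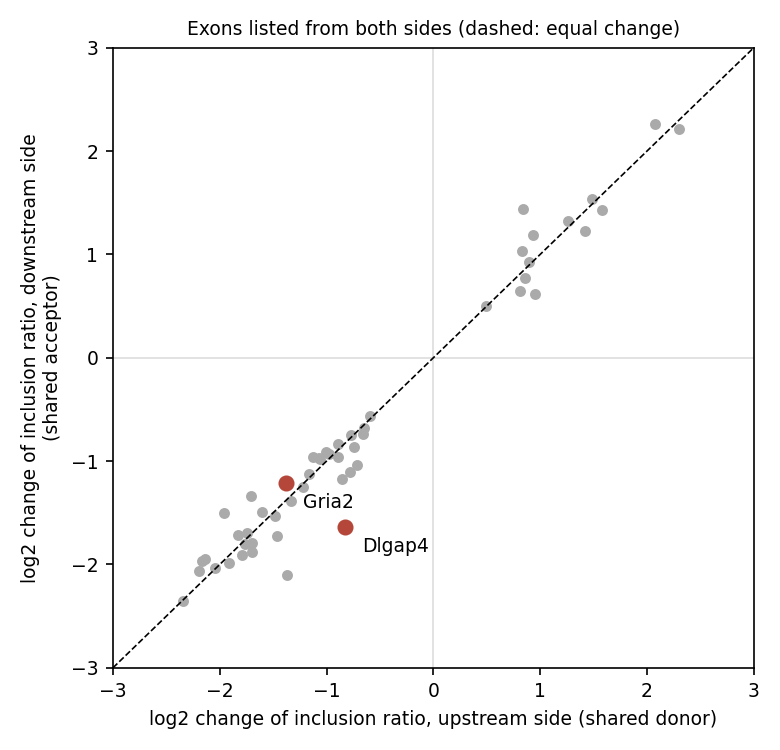
Log2 change of the inclusion ratio (knockdown over mock) of the 52 cassette exons listed from both sides, from the event with the shared donor (x axis) against that with the shared acceptor (y axis). Each point is an exon and the dashed line marks equal change. Dlgap4 lies below the line by 0.81, and Gria2, whose event with the shared acceptor can also be typed as an exchange, above it by 0.17.

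The Dlgap4 exon sits beside an alternative. An exon of 89 nt at chr2:156748332-156748420 is used in 6 annotated transcripts and the 80 nt exon in 3, never together as separate exons. Both lengths leave a remainder of 2 on division by 3, so either keeps the frame that the other gives. None of the 4 listed Dlgap4 junctions uses the 89 nt exon, so an exchange between them was not measured here. Without either exon the frame of an annotated full-length transcript changes: 670 codons precede the exon, and the skipped form stops 14 codons later, at 684 codons instead of 989. In the annotated transcript with the skipping junction the start codon lies in the following exon, and in another transcript it lies inside the 80 nt exon. The GC content is 58.8% for the 80 nt exon and 56.2% for the 89 nt exon, against 47.0% for flop, 44.3% for flip and 55.6% for exon 2 of Grip1.

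**Figure D4:**
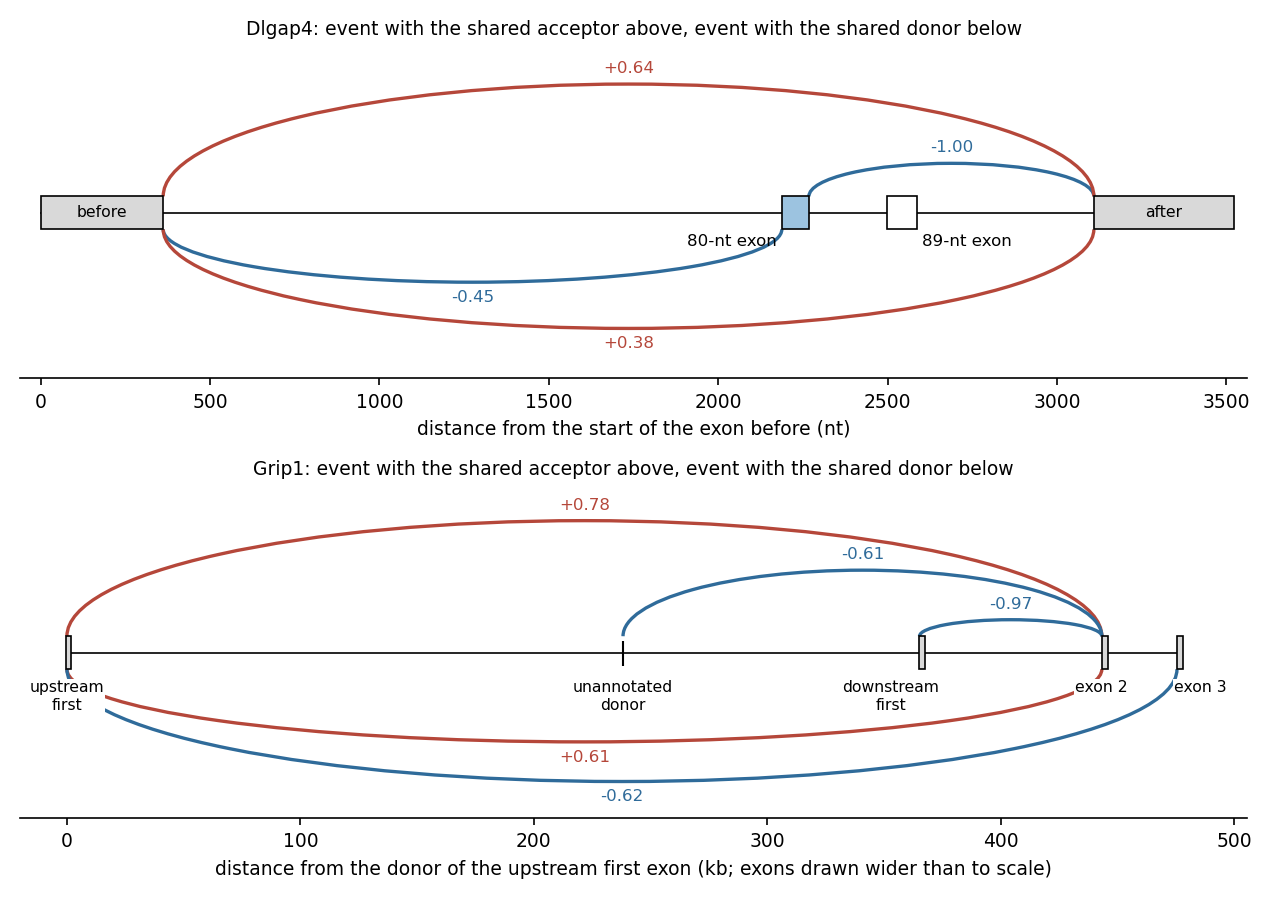
Maps of the Dlgap4 exon (top, distance in nt) and of the Grip1 5′ end (bottom, distance in kb, exons widened) with listed junctions as arcs and the authors' log2 fold at each, red for higher and blue for lower. Arcs above the line share an acceptor and arcs below share a donor. The skipping junction of Dlgap4 is higher in both events (0.64 and 0.38), and so is the Grip1 junction from the upstream first exon to exon 2 (0.78 and 0.61).

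The sizes of these changes are not unusual for the list, while some of the p-values are near its top. The 6 member events with 2 junctions changed by between 0.83 and 1.64 on the log2 scale, and the median of all 408 such events is 1.36 (interquartile range 1.01 to 1.74). By size they rank from 128 to 355. By smallest p, the Gria2 events are numbers 3, 6 and 19 of 585 and the Dlgap4 events numbers 5 and 232. Having 3 or more listed events, as Gria2 has, is shared by 20 of the 457 genes.

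**Figure D5:**
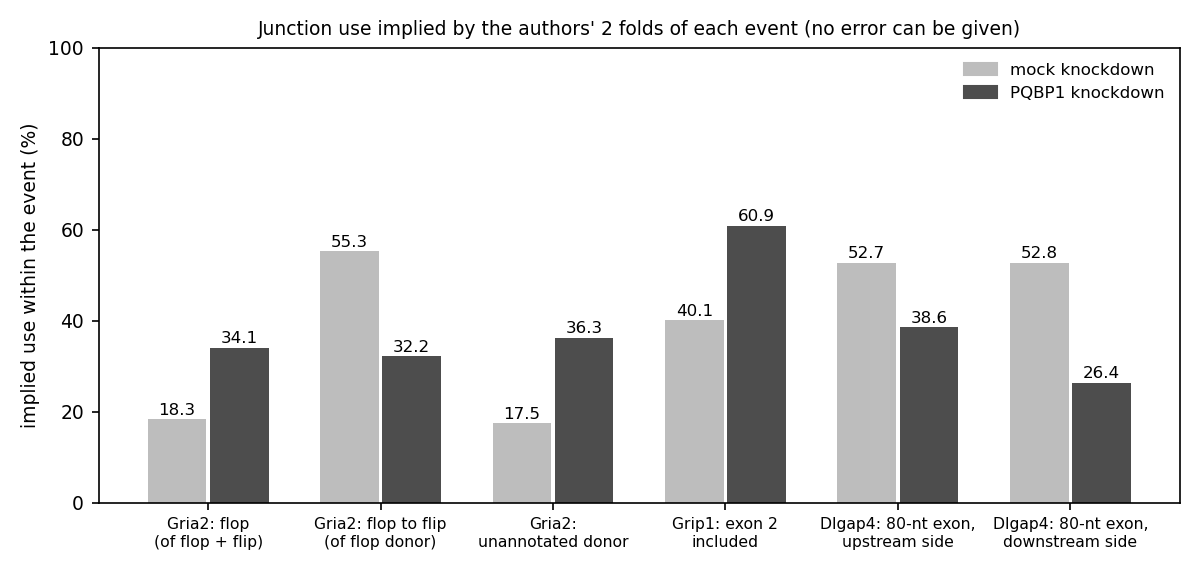
Use of a junction within its event, in percent (y axis), implied by the authors' folds for the mock knockdown (light) and the PQBP1 knockdown (dark) in the 6 events with 2 junctions. No error can be given. The junction from flop to the next exon rises from 18.3% to 34.1%, set against the flip junction, which also serves transcripts with both exons. The Dlgap4 exon stands at 52.7% and 52.8% in the mock knockdown from its sides and at 38.6% and 26.4% in the knockdown.

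Of 67 genes chosen for roles at the AMPA receptor and the postsynaptic density, 9 have an event under their current symbol, the members among them. Genes outside the table were not analysed here, so this share was not set against that of all genes. Older symbols add 2 genes, both in the class of AMPA receptor trafficking and binding, and none in the other classes. Of the 4 AMPA receptor subunits only Gria2 has one. Gria1, Gria3 and Gria4, which have flip and flop exons as well, are not listed, which does not show that their splicing stayed the same. None of the 13 NMDA, kainate and metabotropic glutamate receptor genes has an event by current or older symbol.

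Shisa9, an auxiliary subunit of AMPA receptors, used a cassette exon of 48 nt at chr16:12252785-12252832 at 0.324 times the mock ratio (p = 0.0334 in the authors' deposited table). Nlgn3, a postsynaptic adhesion protein that binds neurexins, included an exon of 60 nt at chrX:101307075-101307134 at 0.444 times (p = 0.0187 in the authors' deposited table). Gripap1, a partner of GRIP1 in endosomal traffic, has an event with 3 junctions, of which the one with the smallest p had a log2 fold of -0.45 (p = 0.0483) in the authors' deposited table.

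The CaM kinase II genes have events too. In Camk2g an exon of 63 nt stood at 0.581 and 0.466 times the mock ratio from its sides (p = 0.0366 and 0.00389 in the authors' deposited table). The Camk2b events with 2 junctions stood at 0.590, 0.491 and 3.91 times, nearer over farther junction. Their p-values in the authors' deposited table were 0.0425, 0.0273 and 0.0215 in that order. In its 3-junction events the smallest-p junctions had log2 folds of -0.29 and -1.19 (p = 0.00632 and 0.000104) in the authors' deposited table.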

How the data were processed

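PolyA RNA was extracted on RNeasy columns and made into libraries with the PrepX kit of IntegenX, per the labels' protocols. Alignment used TopHat2 2.0.4 and mm10, per the submitters' processing notes. How junctions were counted, tested and selected is not given in the sources used here. Per the file headers, the authors deposited, junction by junction, p-value and log2 fold, the latter as knockdown over control. The p-value is taken as unadjusted, and 13 of 1402 are missing. The log2 fold of the authors is read as a change in relative use, since in all 408 events with 2 junctions the p-values are equal (relative tolerance 1e-06) and the signs opposite. There are no values per sample, so depth and its precision are unknown.

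The work used Python 3.11.15. Adding 1 base to start and end made 1179 junctions (84.1%) equal to GENCODE M21 introns (same assembly). Event types, implied use (2 uses adding up to the whole) and reading frames are reconstructions, and the use and typing steps were tested on simulated cases. Folds may come from a model, in which case implied use is approximate. Every member was named, other genes only from the list of 67 or as nearest in change. The event of 1 listed gene is not reported here. Members and lists were chosen with earlier results of these data known. The design had foreseen values per sample, and the descriptions for a table of comparisons were used. Alternatives were single folds, annotated junctions alone, shifted folds, other p thresholds, offsets, typing order and older symbols. Exon sequences are from GENCODE transcripts.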

Additional observations from a re-analysis of the deposited data

How the results depend on the processing

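No paired analysis was possible because the table holds no values per sample. Leaving out replicates was not run for the same reason. The log2 fold of the nearer junction alone kept the direction of the ratio in the 6 member events with 2 junctions: for Gria2 -0.31 (flip or flop), -0.78 (flop to flip) and -0.37 (donor), for Dlgap4 -0.999 (downstream side) and -0.45 (upstream side), and for Grip1 0.61. The farther junction alone, with its sign turned, gave -0.90, -0.60, -1.05, -0.64, -0.38 and 0.62 in that order. These directions could not have come out otherwise, because the 2 folds of each such event have opposite signs. Only the sizes are informative. With annotated junctions alone 5 events kept their values by construction, since all their junctions are annotated and none was left out. The Gria2 donor event gave no value, since its donor is not annotated. Shifting 1 fold by 0.1 moved the change in implied use, in percentage points for the nearer junction, to between -19.2 and -11.7 for flip, -25.0 and -20.8 for flop to flip, and -22.2 and -14.9 for the annotated donor. The ranges were -28.6 to -23.8 and -15.9 to -11.8 for the Dlgap4 exon and 19.0 to 22.4 for exon 2 of Grip1. The 13 member junctions with p under 0.05 became 8 at p under 0.01, because the threshold is stricter, and 7 when events were counted, with or without Benjamini-Hochberg adjustment over the listed events, because there are 7 events. That adjustment covers only events already selected. Other offsets of the coordinates matched 0 of the member junctions. Typing mutually exclusive exons first left 4 cassette events of 5, and older symbols gave 11 listed genes instead of 9. The missing counts limit all values: without them a rare and a frequent junction cannot be told apart by precision.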
